A study of Mus musculus with 18 samples.

Results

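Mitochondrial ribosomal protein genes were taken as every gene of the authors' deposited table whose symbol begins with Mrps or Mrpl followed by a digit. The rule found 76 of 12019 genes, of which 47 are Mrpl genes and 29 are Mrps genes, and the measured values had no part in the choice. The values come from livers of C57BL/6J mice after 8 weeks of an intervention that began at 21 weeks of age. The labels list 3 libraries for each of 4 interventions and 6 for free feeding (ad libitum). Caloric restriction was by 30%. The other 3 groups ate chow that delivered a daily dose, in mg per kg of body weight, of 42 for rapamycin, 37.5 for metformin or 20 for TM5614. The kinase mTOR is the target of rapamycin, metformin is a biguanide that lowers blood glucose, and TM5614 is an inhibitor of plasminogen activator inhibitor type 1. Whole livers were taken after perfusion with buffer. The labels give one background for all groups, list no engineered allele, and name neither sex nor batch.

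Mitochondria keep their own ribosome, which translates the few mitochondrially encoded subunits of the respiratory chain and of ATP synthase. Its ribosomal RNAs come from mitochondrial DNA, whereas all of its proteins are encoded in the nucleus, made in the cytosol and imported. Mrps genes encode proteins of the small subunit, which decodes the mRNA, and Mrpl genes those of the large subunit, which forms peptide bonds. Many of these proteins have bacterial homologues, and others are found only in mitochondria. Hepatocytes are rich in mitochondria, which carry fatty acid oxidation, ketogenesis and part of the urea cycle.

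Each level below is a group mean by the authors, in gene counts scaled by a size factor per library (normalized counts), and each log2 fold change and adjusted p is the authors' own against ad libitum. A gene was called at an adjusted p under 0.05. No value per library was used, so no SD or other measure of spread is given. Only the authors' adjusted p takes the spread between libraries into account. This adjusted p exists for each intervention against ad libitum, whereas differences between interventions, and between gene lists, were not tested. The smallest control means above 0 lay between 0.315 and 0.350 and those of the groups with 3 libraries between 0.299 and 0.398. The control mean thus has low values like those of a mean over 3 libraries, although the labels list 6. Which of the 6 labelled control libraries stand behind it is not known. In whole liver, a lower level per cell cannot be told apart from fewer cells of the type that holds the transcript.

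All 76 genes were expressed at moderate levels in every group. The authors' means had a median of 179.8 normalized counts under caloric restriction (lowest 59.9, highest 862), 203 under rapamycin (66.1 to 717), 220.1 under metformin (72.4 to 774), 188 under TM5614 (65.7 to 644), and 205 in ad libitum livers (69.4 to 728). Summed over the genes, they made up 0.188% of the table's total under caloric restriction, 0.218% under rapamycin, 0.218% under metformin, 0.205% under TM5614 and 0.220% in ad libitum livers. These shares depend also on the table's total, which differed between groups. The sums themselves were 15766 normalized counts under caloric restriction and 17207 in ad libitum livers. The authors' mean under caloric restriction was the lowest of the 5 for 43 genes and the TM5614 mean for 21. The highest of the 5 means stood under metformin for 35 genes and under rapamycin for 16. Per kilobase of annotated exon, the levels in ad libitum livers had a median of 86.5 normalized counts per kilobase and spanned a wide range. The highest were those of Mrpl12, whose product forms the stalk that recruits translation factors (475), Mrpl34 (384), Mrpl2 (354) and Mrpl14 (319.5), and the lowest those of Mrps35 (21.8), Mrpl3 (20.6), Mrpl33 (17.1) and Mrpl47 (15.7). The exon length sums all annotated transcripts of a gene, so genes with long, rarely used exons have low values on this scale.

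Under caloric restriction 10 of the 76 genes fell and none rose. Of the members 13.2% fell, set against 9.24% of the 11760 genes to which the authors' deposited table gives an adjusted p, of which 9.74% rose and 19.0% were called in either direction. The log2 fold changes of the members had a median of -0.19 and ran from -0.87 to 0.33, with 54 below 0 and 22 above it, where all genes with a mean of at least 10 had a median of 0.01. Rescaling the group means to an equal sum without the ribosomal RNA precursor Rn45s shifted every gene by -0.10 and put the median of the members at -0.29. Among the 7425 genes of the members' range of levels (means of 50 to 1000) that have an adjusted p, 9.80% fell, 10.6% rose and 20.4% were called in either direction. Changes were small: 70 of the 76 log2 fold changes were under 0.5 in size, and the means of the 10 called genes were between 54.7% and 82.6% of the control mean. For all 10 called genes the mean under caloric restriction was the lowest of the 5 group means, as it was for 43 of the 76 members. The call itself requires a low mean under caloric restriction, so for the called genes this is partly built in.

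**Figure D1:**
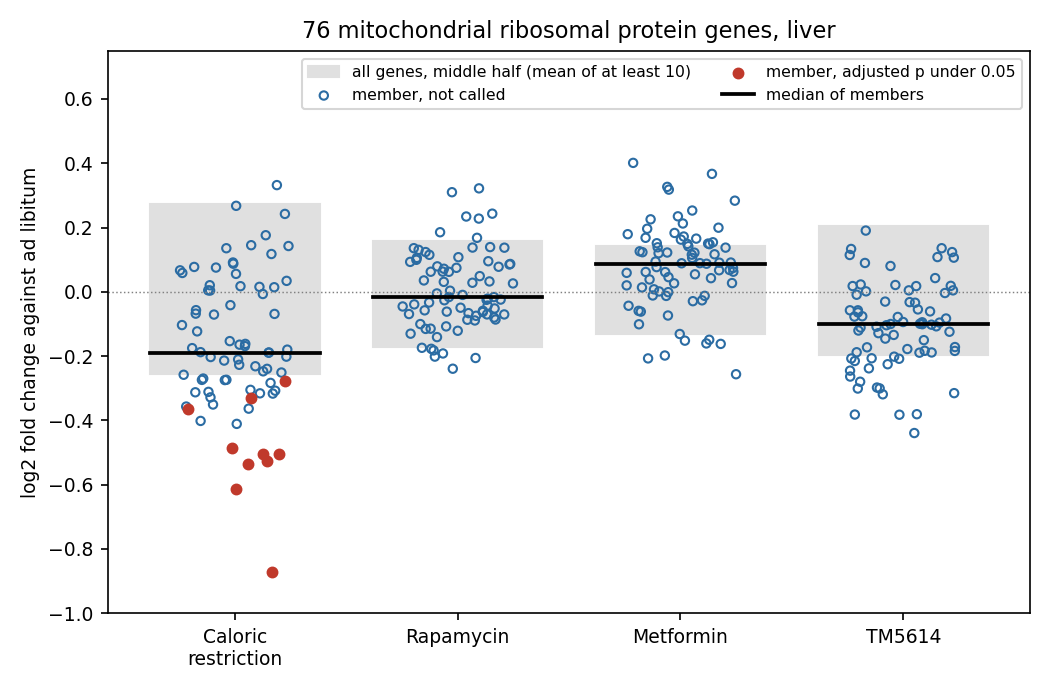
Log2 fold change against ad libitum (vertical axis) of each of the 76 genes under the 4 interventions. Filled points are genes with an adjusted p under 0.05, black lines the medians, and grey boxes the interquartile range of all genes with a mean of at least 10. Under caloric restriction the median is -0.19 with 10 filled points, all below 0, and no point is filled under the other 3 interventions.

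Of the called genes, 6 carry the small subunit name Mrps. Mrps27, which encodes a mitochondria-specific protein with pentatricopeptide repeats, had authors' means of 131 normalized counts under caloric restriction, 219 under rapamycin, 233 under metformin, 184 under TM5614, and 240.3 in ad libitum livers. The authors' deposited table gives it a log2 fold change of -0.87 under caloric restriction (adjusted p = 1.24e-07), the largest fall among the 76 genes. Its next lowest mean was that under TM5614 (log2 fold change -0.38, adjusted p = 0.0987, authors' deposited table), and its means under rapamycin and metformin lay near the control.

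Mrps15, a homologue of bacterial S15, had means of 100.3 under caloric restriction, 139 under rapamycin, 156 under metformin, 119 under TM5614, and 145 in ad libitum livers (caloric restriction log2 fold change -0.53, adjusted p = 0.0177, authors' deposited table). Mrps5 encodes the homologue of bacterial S5, which lines the mRNA entry channel, and knockdown of its worm homologue mrps-5 is known to lengthen life in Caenorhabditis elegans. Its means were 184 under caloric restriction, 253 under rapamycin, 251 under metformin, 239.7 under TM5614, and 262 in ad libitum livers (-0.51, adjusted p = 0.00161, authors' deposited table), so that the other 3 interventions lay close to the control. Mrps10, a homologue of bacterial S10, had means of 182 under caloric restriction, 269.6 under rapamycin, 266 under metformin, 226 under TM5614, and 258 in ad libitum livers (-0.50, adjusted p = 0.00505, authors' deposited table).

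Mrps22 and Mrps18b, which also fell, were classed like Mrps27 as mitochondria-specific. Mrps22, in which human mutations cause mitochondrial disease, had means of 122 under caloric restriction, 168 under rapamycin, 174 under metformin, 157 under TM5614, and 171 in ad libitum livers (-0.49, adjusted p = 0.0148, authors' deposited table). Mrps18b, one of several genes descended from that of bacterial S18, had means of 224 under caloric restriction, 339 under rapamycin, 320.5 under metformin, 292 under TM5614, and 288 in ad libitum livers (-0.37, adjusted p = 0.0399, authors' deposited table). Of the other S18 genes, Mrps18c had -0.07 (adjusted p = 0.858) and Mrps18a -0.19 (adjusted p = 0.368) under caloric restriction in the authors' deposited table.

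The other 4 called genes encode large subunit proteins. Mrpl1 encodes the homologue of bacterial L1, the mobile arm at the site where spent tRNA leaves. Its means were 141 under caloric restriction, 243 under rapamycin, 238 under metformin, 219 under TM5614, and 216 in ad libitum livers (-0.61, adjusted p = 0.000314, authors' deposited table), so that only caloric restriction lay below the control. Mrpl44 encodes a mitochondria-specific protein with a ribonuclease III fold, and human mutations in it cause cardiomyopathy. Its means were 125 under caloric restriction, 167 under rapamycin, 151 under metformin, 145 under TM5614, and 181 in ad libitum livers (-0.54, adjusted p = 0.00514, authors' deposited table). All 4 interventions lay below the control for this gene, and the other 3 did not pass (adjusted p of 0.855 under rapamycin, 0.888 under metformin and 0.234 under TM5614, authors' deposited table).

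Mrpl50, which encodes another mitochondria-specific protein, had means of 310.3 under caloric restriction, 411 under rapamycin, 408 under metformin, 364 under TM5614, and 391 in ad libitum livers (-0.33, adjusted p = 0.0111, authors' deposited table). Mrpl10 encodes the homologue of bacterial L10, the base of the stalk. Its means were 317 under caloric restriction, 423 under rapamycin, 403 under metformin, 341 under TM5614, and 384 in ad libitum livers (-0.28, adjusted p = 0.0432, authors' deposited table), which is close to the threshold.

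**Figure D2:**
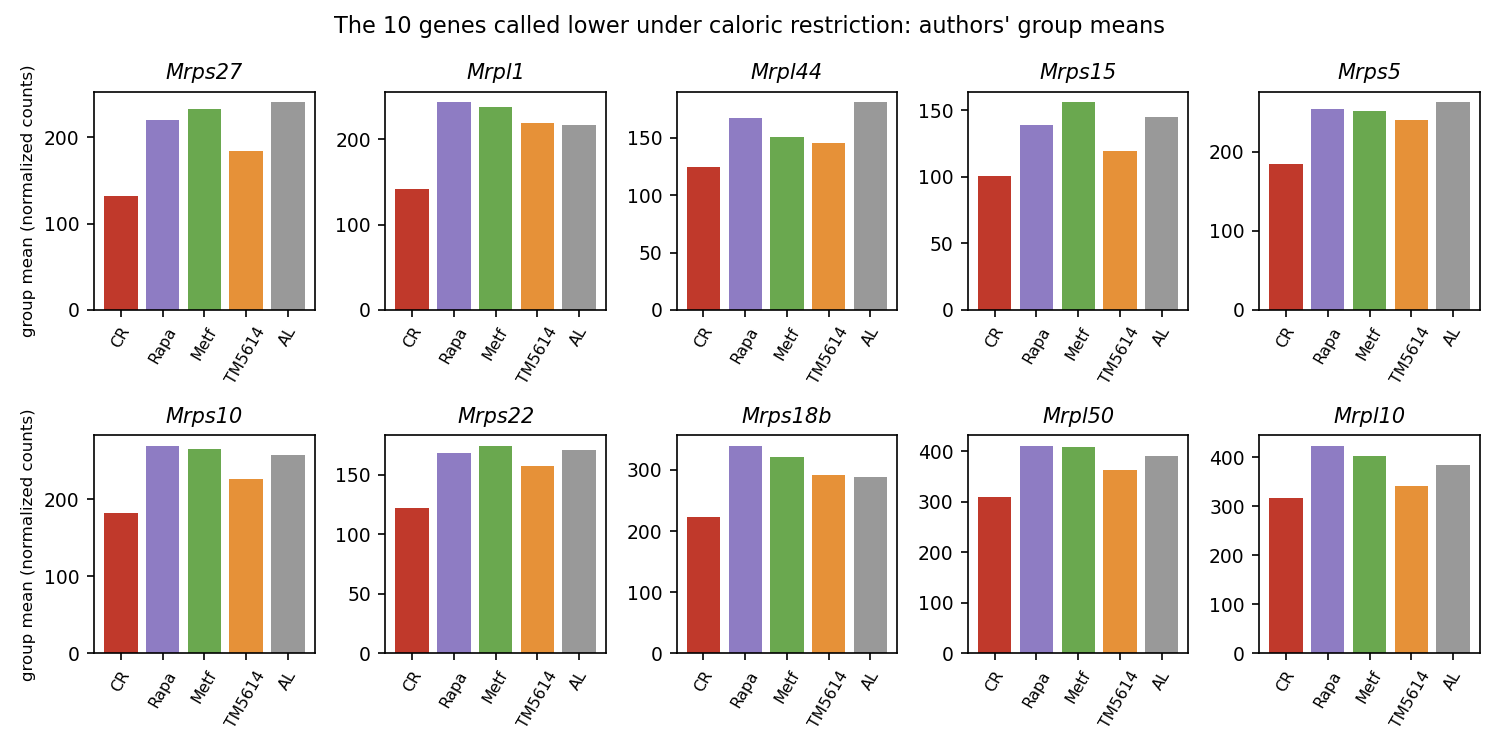
Authors' group means in normalized counts (vertical axis, from 0) of the 10 genes that fell under caloric restriction, for caloric restriction (CR), rapamycin (Rapa), metformin (Metf), TM5614 and ad libitum (AL); the bars have no error since no value per library was used. The caloric restriction bar is the lowest in each panel, from 54.7% of the control for Mrps27 to 82.6% for Mrpl10.

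A rise was not called for any member under caloric restriction, and the largest positive values belonged to genes of different position in the ribosome. Mrps21, a homologue of bacterial S21, had means of 232 under caloric restriction and 184 in ad libitum livers (0.33, adjusted p = 0.220, authors' deposited table). Mrpl9, a homologue of bacterial L9, had 487 under caloric restriction and 404 in ad libitum livers (0.27, adjusted p = 0.0619, authors' deposited table). Mrpl12 had 862 under caloric restriction and 728 in ad libitum livers (0.24, adjusted p = 0.0930, authors' deposited table). Mrpl43 stood at 0.18 (adjusted p = 0.312). The largest negative values that did not pass were those of Mrpl40 (-0.41, adjusted p = 0.0667), Mrps16 (-0.40, adjusted p = 0.127), Mrpl42 (-0.36, adjusted p = 0.136) and Mrpl49 (-0.36, adjusted p = 0.0831) in the authors' deposited table.

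Both subunits and both kinds of origin had negative medians under caloric restriction. The counts of genes that fell in these small classes are to be read against the 9.24% of all genes, and 9.80% of those in the same range of levels, that fell. The median log2 fold change was -0.21 over the 30 bacterial-type large subunit genes (2 fell) and -0.19 over the 19 large subunit genes classed as mitochondria-specific (2 fell). For the small subunit it was -0.20 over 16 bacterial-type genes (3 fell) and -0.12 over 10 genes classed as mitochondria-specific (3 fell). Within the stalk Mrpl10 fell, whereas Mrpl11 had -0.31 (adjusted p = 0.0827) and Mrpl12 a value of the opposite sign. Of 6 genes whose products surround the exit tunnel, through which the nascent chain leaves, Mrpl44 fell, and Mrpl22, Mrpl45, Mrpl47, Mrpl23 and Mrpl24, ran from -0.35 to 0.08 without passing. None of the 7 genes of the central protuberance passed, with Mrpl40, Mrps30, Mrpl46, Mrpl27, Mrpl48, Mrpl38 and Mrpl18 between -0.41 and 0.06. Of 4 genes at the decoding site and mRNA channel Mrps5 fell, while in the authors' deposited table Mrps12 (-0.28), Mrps7 (-0.17) and Mrps11 (-0.07) missed the threshold.

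For 3 members the product is placed elsewhere than the name says. Mrps18a (-0.19) and Mrps30 (-0.27, adjusted p = 0.205) encode proteins of the large subunit, and Mrps36 (0.09, adjusted p = 0.800) encodes a protein now assigned to the 2-oxoglutarate dehydrogenase complex. Another 5 subunits of the mitochondrial ribosome carry other names and were not members. In the authors' deposited table their values under caloric restriction lay between -0.33 for Gadd45gip1 (adjusted p = 0.112) and -0.02 for Dap3 (adjusted p = 0.952), and none passed. The large subunit genes listed under the older names Mrp63 (-0.36, adjusted p = 0.115) and Ict1 (-0.05, adjusted p = 0.889) did not pass either in the authors' deposited table.

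**Figure D3:**
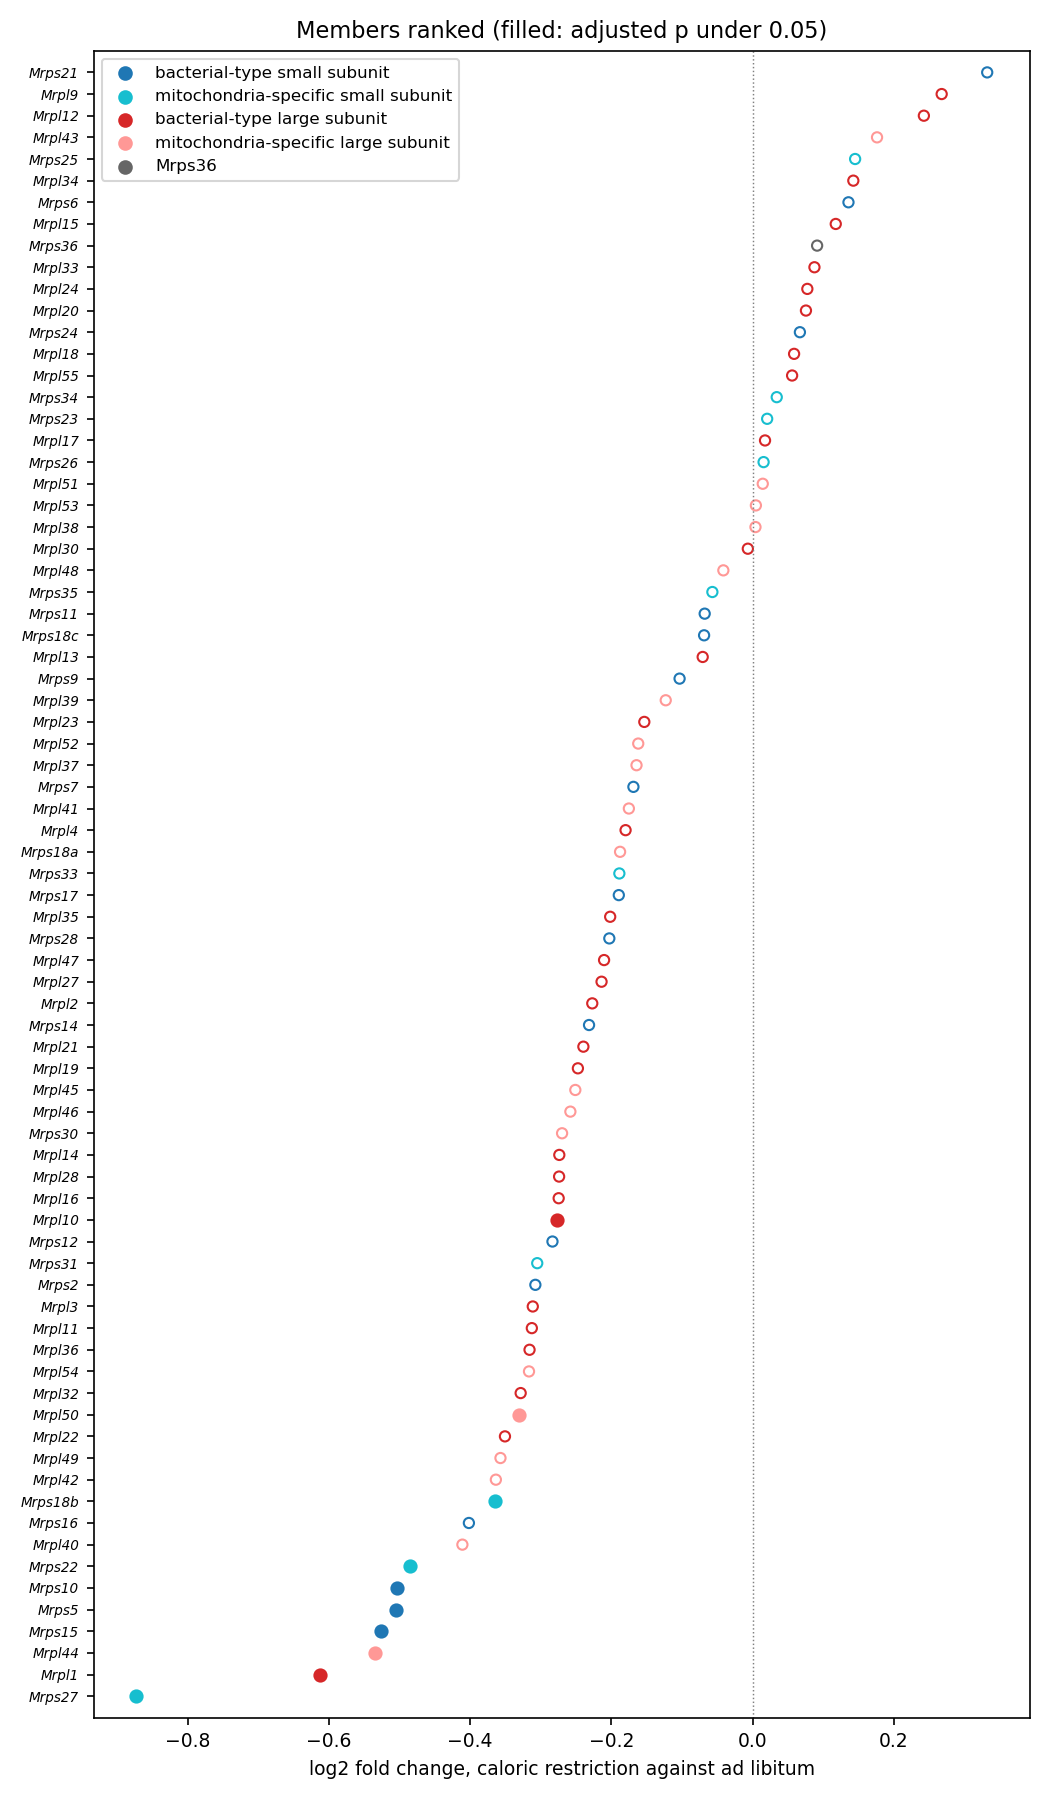
The 76 genes ranked by log2 fold change under caloric restriction against ad libitum (horizontal axis), coloured by subunit and by class (bacterial-type or mitochondria-specific, the latter with Mrps18a and Mrps18b). Filled points have an adjusted p under 0.05. The values run from 0.33 for Mrps21 at the top to -0.87 for Mrps27 at the bottom, and the 10 filled points hold genes of every coloured class except Mrps36.

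The genes are spread over the genome. In the GENCODE vM21 annotation of the mm10 assembly the 76 genes, all protein-coding, lie on 17 chromosomes with at most 10 on one, chromosome 11. Mrps27 lies on chromosome 13 from 99344786 to 99415562 on the plus strand, Mrpl1 on chromosome 5 from 96209493 to 96266727 on the plus strand, and Mrps5 on chromosome 2 from 127587222 to 127606829 on the plus strand. For 17 of the 76 genes (22.4%) the start of another protein-coding gene lay on the opposite strand within 1000 bases upstream, so that the pair is transcribed in opposite directions from shared upstream DNA, as for 10.1% of 10611 protein-coding genes of the table. Of the 10 genes that fell under caloric restriction, 5 have such a neighbour. Ptcd2, 81 bases from the start of Mrps27, had means of 145 under caloric restriction and 155 in ad libitum livers (-0.10, adjusted p = 0.726, authors' deposited table). Zfp189, 83 bases from the start of Mrpl50, rose (0.70, adjusted p = 0.0133, authors' deposited table), with means of 89.5 under caloric restriction and 55.3 in ad libitum livers. The neighbours of Mrps18b (Ppp1r10, -0.81), Mrps5 (Zfp661, -0.55) and Mrpl10 (Lrrc46, -0.34) had adjusted p of 0.326, 0.441 and 0.753 in the authors' deposited table, none of which passed.

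The annotated exons of 30 of the 76 genes share bases with another gene, which matters because the strand setting of the counting is not given in the sources used here. Among the called genes this holds for Mrps27, Mrpl44, Mrps18b and Mrpl10, each with a gene on the opposite strand. Exons of Wdfy1 overlap those of Mrpl44 by 126 bases, and Wdfy1 had means of 95.6 under caloric restriction and 59.3 in ad libitum livers (0.69, adjusted p = 0.0587, authors' deposited table), a difference of the opposite sign. The gene opposite Mrps27, 6430562O15Rik, overlaps it by 506 bases and had means of 7.85 under caloric restriction and 11.8 in ad libitum livers in the authors' deposited table, so its level was small beside that of Mrps27. Reads of Mrpl44 and Mrps27 may therefore hold some from these neighbours. The genes opposite Mrps18b (Gm16279, 638 bases shared) and Mrpl10 (Gm11574, 240 bases shared) are not listed in the authors' deposited table. Their levels are thus unknown, and the same limit holds for Mrps18b and Mrpl10.

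Promoters of the members were searched for the letters of 7 motifs, since binding sites for the factors NRF1, GABP (an ETS family factor) and YY1 are known in promoters of genes for mitochondrial proteins. RefSeq promoters (GRCm38.p6, 250 bases before to 50 after a gene's start) were found for 67 of the 76 genes, 73 promoters in all. The ETS letters CCGGAAG stood on either strand in 32.9% of them, against 16.7% of the 11004 promoters of genes in the table and 8.86% of all 32851 promoters. The NRF1 letters GCGCATGC stood in 10.96%, against 5.04% of the table's promoters and 2.71% of all. The YY1 letters AAGATGG, whose first 3 letters are the last 3 of the ETS motif, stood in 17.8%, against 7.01% of the table's promoters and 6.34% of all. The GC box GGGCGG (52.1%, against 60.8% and 35.7%), the E-box CACGTG (9.59%, against 9.97% and 7.15%), the cyclic AMP element TGACGTCA (2.74%, against 2.96% and 1.79%) and the TATA letters TATAAA (6.85%, against 7.90% and 13.6%) gave these shares for members, the table and all promoters, in that order. The median GC content was 58.3% in the members' promoters, 60.3% in those of the table and 52.7% in all. Genes with and without a match had similar medians under caloric restriction for NRF1 (-0.20 over 8 genes with it and -0.20 over 59 without), and for ETS the medians were -0.12 over 24 genes with it and -0.23 over 43 without.

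The promoters of the 3 genes with the smallest adjusted p under caloric restriction are shown, as the 250 bases that end just before the start in RefSeq, 5′ to 3′ in the direction of transcription, with matches to any of the 7 motifs in capitals. The RefSeq start of Mrpl1 and of Mrps5 lies downstream of the GENCODE start given above, so the window of Mrpl1 lies within the gene as GENCODE annotates it, and that of Mrps5 mostly so. Distances are counted from the RefSeq start. Mrps27 holds an ETS match from 48 to 42 bases before the start (its YY1 match lies past the start), Mrpl1 holds GC boxes, and Mrps5 has a single GC box far upstream.
Mrps27, chr13:99344536-99344785, plus strand: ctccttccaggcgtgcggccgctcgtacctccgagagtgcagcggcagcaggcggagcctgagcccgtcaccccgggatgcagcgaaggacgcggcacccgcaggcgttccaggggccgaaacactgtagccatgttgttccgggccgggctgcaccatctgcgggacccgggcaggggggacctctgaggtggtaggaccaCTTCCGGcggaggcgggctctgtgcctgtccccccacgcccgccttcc
Mrpl1, chr5:96209865-96210114, plus strand: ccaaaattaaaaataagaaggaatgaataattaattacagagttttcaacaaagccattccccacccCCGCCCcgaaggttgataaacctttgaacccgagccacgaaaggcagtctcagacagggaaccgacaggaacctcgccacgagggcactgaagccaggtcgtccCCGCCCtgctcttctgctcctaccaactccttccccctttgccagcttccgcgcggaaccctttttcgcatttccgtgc
Mrps5, chr2:127587176-127587425, plus strand: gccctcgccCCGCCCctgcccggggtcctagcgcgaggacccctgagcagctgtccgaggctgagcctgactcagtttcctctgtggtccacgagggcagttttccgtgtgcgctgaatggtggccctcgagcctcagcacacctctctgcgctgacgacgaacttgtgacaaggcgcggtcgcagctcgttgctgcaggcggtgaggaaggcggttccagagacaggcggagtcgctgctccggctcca

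The same search of the 300-base windows of Mrps10, Mrpl44 and Mrpl50 found none of the 7 sets of letters. A match or its absence in this window is a description and says nothing of whether a factor binds there.

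Under rapamycin none of the 76 genes was called in either direction, where the authors' deposited table has 1.39% of 10369 genes called (0.714% rose and 0.675% fell). A gene not called, here or under metformin and TM5614, is not thereby shown to be unchanged. The members had a median log2 fold change of -0.02 (all genes 0.01), with 41 values below 0 and 35 above it, and the smallest adjusted p was 0.418, that of Mrpl39. Mrpl22, at the exit tunnel, had means of 137 under rapamycin and 109.9 in ad libitum livers (0.32, adjusted p = 0.433, authors' deposited table), the largest positive value. Mrps11 (0.31), Mrpl39 (0.24) and Mrps18b (0.23) came next, and Mrpl53 (-0.24), Mrpl13 (-0.21), Mrps35 (-0.20) and Mrps12 (-0.19) were the lowest in the authors' deposited table. Synthesis of ribosomes is a known output of mTOR, the kinase that rapamycin inhibits. The table holds adjusted p-values only, so for this and the following counts of 0 from the authors' DESeq2 test no count at an unadjusted p is given.

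Under metformin none of the 72 members with an adjusted p was called, where 0.245% of 7350 genes were called in the authors' deposited table (0.163% rose and 0.0816% fell). Mrpl47, Mrps11, Mrps36 and Mrps6, the 4 others, have no adjusted p there. The median log2 fold change was 0.09 (all genes 0.01), with 57 values above 0 and 19 below it. The largest were those of Mrps21 (0.40, adjusted p = 0.724), with means of 243 under metformin and 184 in ad libitum livers, Mrps18c (0.37), Mrpl33 (0.33) and Mrpl22 (0.32) in the authors' deposited table. The lowest were those of Mrpl44 (-0.26), Mrpl40 (-0.21), Mrpl3 (-0.20) and Mrps16 (-0.16). The ribosomal RNA precursor Rn45s, which poly(A) selection should remove, was 4.40% of all normalized counts under metformin and 0.227% in ad libitum livers. With the group means rescaled to an equal sum without Rn45s, the median of the members was 0.05.

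Under TM5614 none of the 76 genes was called, where 3.96% of 10834 genes were called in the authors' deposited table (2.01% rose and 1.95% fell). The median log2 fold change was -0.10 (all genes -0.01), with 58 values below 0 and 18 above it. The lowest was that of Mrpl23, an exit tunnel protein, with means of 129 under TM5614 and 174.5 in ad libitum livers (-0.44, adjusted p = 0.153, authors' deposited table). Mrps16 (-0.38, adjusted p = 0.259), Mrps27 (-0.38, adjusted p = 0.0987) and Mrps12 (-0.38, adjusted p = 0.115) followed, and Mrps27 had the smallest adjusted p of the members in the authors' deposited table. The highest values were those of Mrps25 (0.19), Mrpl18 (0.14), Mrps18c (0.13) and Mrpl19 (0.12).

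The small shifts under TM5614 stand beside a dependence of all genes on annotated exon length. For all genes with a mean of at least 10, the median log2 fold change under TM5614 was -0.16 over 569 genes with under 1500 bases of exon, -0.10 over 2163 genes with 1500 to 3000, -0.01 over 4005 with 3000 to 6000 and 0.10 over 3253 with more. In the same 4 length classes the members had medians of -0.14 (20 genes), -0.10 (26), -0.09 (18) and -0.11 (12). Under metformin all genes had medians of 0.08, 0.02, 0.00 and 0.00 in these classes, and the members 0.11, 0.06, 0.12 and 0.05. Under caloric restriction all genes had medians of -0.08, -0.02, 0.01 and 0.06, and the members -0.19, -0.18, -0.22 and -0.06. In each of the 4 classes the members had a lower median than all genes under caloric restriction and a higher one under metformin. Exon length here sums all annotated transcripts of a gene and is not the length of the transcripts present. The part of length in these shifts was not tested.

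Differences between the interventions can be given only as ratios of the authors' means, with no test. The median log2 ratio of the 76 genes (pseudocount of 1) was -0.18 for caloric restriction over rapamycin, -0.24 for caloric restriction over metformin and -0.08 for caloric restriction over TM5614. It was 0.13 for rapamycin over TM5614, 0.20 for metformin over TM5614 and 0.06 for metformin over rapamycin, with medians of all genes within 0.01 of 0. Metformin lay above TM5614 for 68 of the 76 genes and above caloric restriction for 67.

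Of 19 translation factors of mitochondria 4 fell under caloric restriction, none rose and 15 did not pass, where 9.24% of all genes fell. The list had a median log2 fold change of -0.22 (all genes 0.01), and no test of the list was run. The initiation factor gene Mtif2 had means of 168 under caloric restriction and 255 in ad libitum livers (-0.60, adjusted p = 0.00397, authors' deposited table). Tsfm, which recharges the elongation factor Tu, had 79.0 under caloric restriction and 125 in ad libitum livers (-0.66, adjusted p = 0.00231, authors' deposited table). Gfm2, which splits ribosomes after termination (-0.53, adjusted p = 0.00254), and Taco1, an activator of cytochrome oxidase subunit translation (-0.63, adjusted p = 0.0156), fell as well in the authors' deposited table. The 3 with the highest means among those that did not pass were Lrpprc (-0.09), Tufm (-0.22, adjusted p = 0.0897) and Gfm1 (-0.19). The authors' DESeq2 test called none of these factors under rapamycin, metformin (13 with an adjusted p) or TM5614.

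Of 25 assembly factors of the mitochondrial ribosome 1 fell under caloric restriction, where 9.24% of all genes fell, and the other 24 did not pass. The gene that fell was Fastkd2, which binds the large ribosomal RNA of mitochondria (-0.48, adjusted p = 0.0367, authors' deposited table). The median of the list was -0.10. Among 15 genes of mitochondrial DNA upkeep and transcription 1 rose and 2 fell under caloric restriction, a share close to the 19.0% of all genes called in either direction. Tfb2m, a transcription factor of mitochondrial RNA polymerase, had means of 364 under caloric restriction and 269 in ad libitum livers (0.44, adjusted p = 0.00295, authors' deposited table). Ssbp1, which coats single-stranded mitochondrial DNA (-0.52, adjusted p = 0.0474), and Mterfd3 (-2.15, adjusted p = 0.0136, at means of 3.35 under caloric restriction and 15.2 in ad libitum livers) fell in the authors' deposited table, whereas Tfam had 0.09 (adjusted p = 0.665).

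Of 10 regulators of mitochondrial biogenesis 2 rose and 1 fell under caloric restriction, where 9.74% of all genes rose and 9.24% fell. Esrra, a nuclear receptor that drives mitochondrial genes, had means of 331 under caloric restriction and 173 in ad libitum livers (0.94, adjusted p = 1.90e-06, authors' deposited table), and Tfeb, a regulator of lysosomal genes, rose by 0.96 (adjusted p = 0.0106). Gabpb1, which encodes the partner of the ETS factor GABPA, had 40.3 under caloric restriction and 70.1 in ad libitum livers (-0.80, adjusted p = 0.00416, authors' deposited table), while Gabpa itself had -0.15 (adjusted p = 0.585). The coactivator gene Ppargc1a had means of 403 under caloric restriction, 119.9 under rapamycin, 74.6 under metformin, 93.5 under TM5614, and 214 in ad libitum livers, and passed in none of the 4 comparisons (adjusted p of 0.107, 0.412, 0.0912 and 0.0777 in the same order, authors' deposited table). Pprc1, a related coactivator, rose under TM5614 (0.71, adjusted p = 0.0379, authors' deposited table).

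Of 11 proteostasis genes of mitochondria with an adjusted p, 2 rose and 1 fell under caloric restriction, beside 9.74% and 9.24% of all genes. The other gene of this list, Ddit3, has no adjusted p. Its means were 134 under caloric restriction and 35.9 in ad libitum livers (log2 fold change 1.90), the largest positive value of the list. Hspd1 (0.46, adjusted p = 0.0184), a chaperonin, and Afg3l2 (0.25, adjusted p = 0.0163), a protease that processes the product of Mrpl32, rose under caloric restriction in the authors' deposited table. Atf5, a factor of the mitochondrial unfolded protein response, had means of 1319 under caloric restriction, 2724 under rapamycin, 2242 under metformin, 1676 under TM5614, and 2674 in ad libitum livers. It fell under caloric restriction (-1.02, adjusted p = 2.19e-11) and TM5614 (-0.67, adjusted p = 0.000516) in the authors' deposited table.

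**Figure D4:**
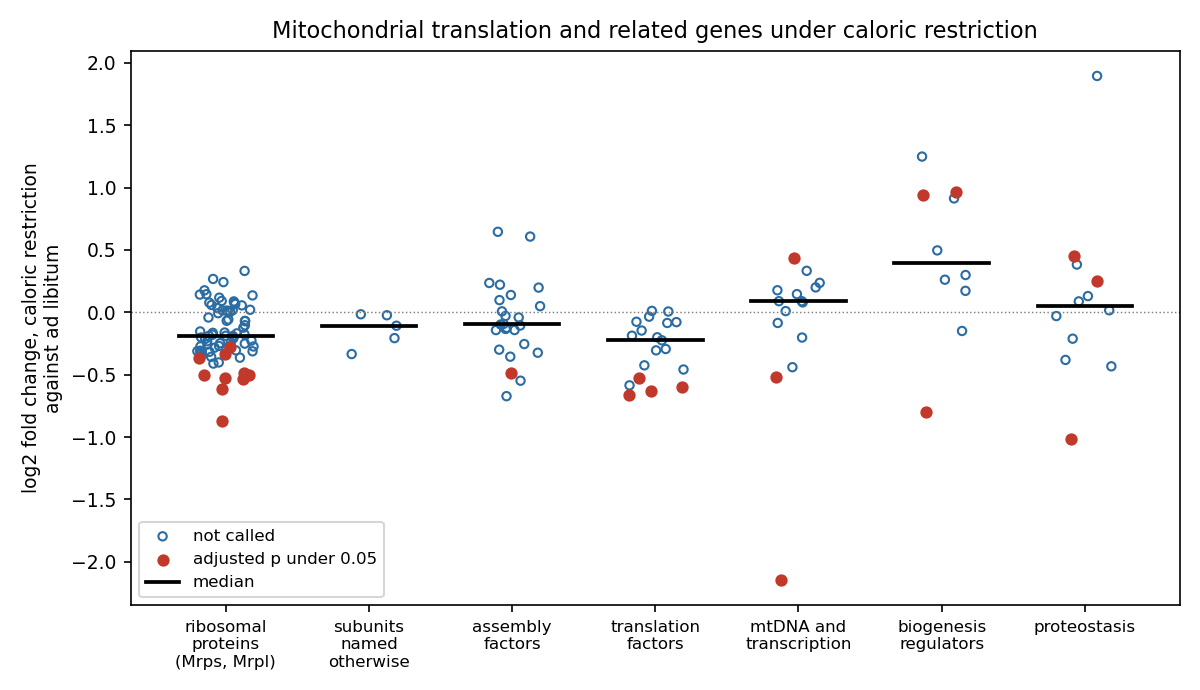
Values on the log2 fold change scale under caloric restriction against ad libitum (vertical axis) of the 76 ribosomal protein genes and of 6 related gene lists; filled points have an adjusted p under 0.05 and black lines are medians. Translation factors (median -0.22, 4 called) lie on the same side of 0 as the ribosomal protein genes (median -0.19, 10 called), while biogenesis regulators have a median of 0.40 with points called on both sides.

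Cytosolic ribosomal protein genes and nuclear-encoded respiratory chain subunits were set beside the mitochondrial ribosome. Under caloric restriction the median log2 fold change of the mitochondrial ribosomal protein genes was -0.19, against 0.12 for the cytosolic ones and 0.06 for the respiratory chain subunits. In the same order, the medians were -0.10, -0.12 and -0.13 under TM5614, 0.09, 0.13 and 0.09 under metformin, and -0.02, -0.05 and 0.04 under rapamycin. None of the 77 cytosolic genes with an adjusted p was called under caloric restriction, where 19.0% of all genes were. Of 79 respiratory chain subunits 3 rose under caloric restriction, where 9.74% of all genes rose. Under TM5614 1 of 77 respiratory chain subunits fell, where 1.95% of all genes fell. The difference between the lists was not tested, and under TM5614 and metformin all 3 had medians of 1 sign.

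**Figure D5:**
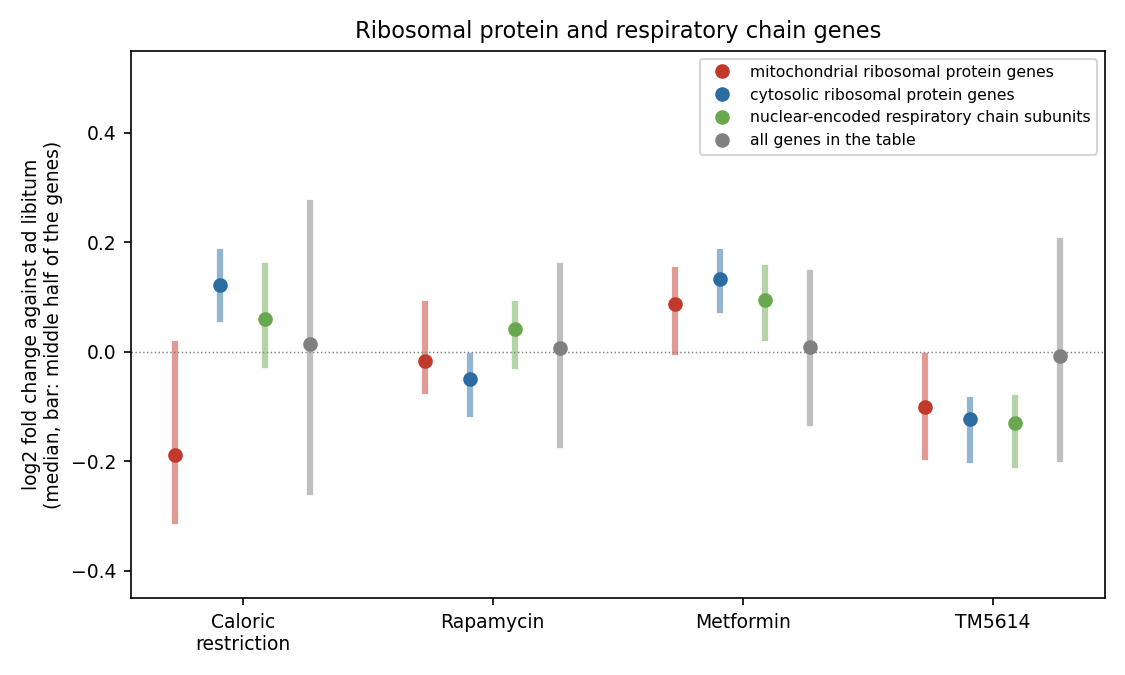
Median log2 fold change against ad libitum (points) and interquartile range of the genes (bars) for mitochondrial ribosomal protein genes, cytosolic ribosomal protein genes, respiratory chain subunits and all genes with a mean of at least 10. Under caloric restriction the mitochondrial ribosomal protein genes stand at -0.19 and the other 3 groups at or above 0.01, whereas under TM5614 the 3 gene groups stand between -0.13 and -0.10.

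Markers of the tissue and of other cell types were read from the same table. All 6 hepatocyte markers were listed, led by Alb with authors' means of 858112 normalized counts under caloric restriction and 606485 in ad libitum livers. Under caloric restriction 2 hepatocyte markers rose and 2 fell, where 9.74% of all genes rose and 9.24% fell. Alb, Cyp2e1 and Tat had higher means under caloric restriction than in ad libitum livers, and Apoa1, Serpina1c and Ttr had lower ones. Of the 5 listed Kupffer cell markers 2 fell, and their summed means were 592 under caloric restriction, 993 under rapamycin, 895 under metformin, 915 under TM5614, and 1114 in ad libitum livers, with none at 0. Of the 2 listed erythroid markers 1 fell, with sums of 280.4 under caloric restriction and 835 in ad libitum livers. The 2 differed in opposite directions. Alas2 had means of 152 under caloric restriction and 766 in ad libitum livers, whereas Hba-a1 had 128 under caloric restriction and 69.5 in ad libitum livers. Among 5 stellate cell markers 1 fell under caloric restriction, while their summed means were 1735 under caloric restriction and 1611 in ad libitum livers. Among 5 of sinusoidal endothelium 2 fell under rapamycin, where 0.675% of all genes fell. Summed means over the 5 groups were between 272 and 412 for cholangiocyte markers, 50.4 and 148 for neutrophil markers, 17.6 and 31.1 for B and plasma cell markers and 4.68 and 7.84 for T and NK cell markers. The part of these cell types in the lower ribosomal protein transcripts was not tested.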

How the data were processed

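Reads were aligned with HISAT2 2.0.5 to mm10, per the submitters' processing notes, from poly(A)-selected libraries per the labels' protocols. How reads were counted, with which annotation and on which strand is not given in the sources used here. Per the file headers, the authors deposited a normalized signal for each group (a mean of counts scaled by size factors, from DESeq2 by the table's name), an adjusted p-value (p-value adjusted by the authors) and the log2 fold change of each intervention over the control. For the members, the deposited log2 fold changes lay within 0.00636 of the log2 ratio of the group means.

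Another table holds 18 columns with names that fit no label, and these were not used. Depth per library, and hence its precision, is unknown, and no value was averaged over replicates here. Nothing says whether the libraries of a group came from separate mice, so the spread between libraries that the authors' p-values take into account may be technical.

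Members were found by symbol, calls counted at an adjusted p under 0.05, and medians taken over genes whose 5 group means average at least 10 (Python 3.11.15, pandas 2.3.3, figures with matplotlib 3.10.9). The counting was tested on simulated data. Comparisons of the 4 interventions share the control. List genes under older symbols were found by RefSeq synonyms. Promoters are those of RefSeq on GRCm38.p6. Exon lengths and positions are those of GENCODE vM21 for GRCm38.

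The members, gene lists and tests were chosen with earlier results of these data known. Named were all called members (up to 15 in each direction), the 4 largest and 4 lowest values not called in each comparison, the extremes of level per kilobase, the structural lists, and of related lists the called genes and up to 3 others. Others, such as Wdfy1 and the genes that share an upstream region with called members, were named after their values were seen. Alternatives were other thresholds, pseudocounts, scalings, level filters and a member list by established subunits.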

Additional observations from a re-analysis of the deposited data

How the results depend on the processing

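With the threshold at an adjusted p under 0.01, 5 members were called under caloric restriction, all lower, and at 0.10 there were 17, of which 15 were lower and 2 higher, against 10 as reported. At 0.10, 1 member was called under TM5614, against 0. Rescaling the group means to an equal sum without Rn45s gave a median log2 fold change of -0.29 under caloric restriction, against -0.19, since the rescaling itself shifts every gene by -0.10. The other 13 alternative counts and 27 alternative medians kept their sign and moved little (medians by less than 0.05 on the log2 scale), over other pseudocounts, centring, level filters and a list of established subunits. Leaving out single libraries and limma on values per library were not run, because no column with values per library could be given a sample. No paired analysis was possible because the columns with values per library carry none of the replicate numbers of the labels. The unknown depth and the use of group means limit what small differences can show: of the 76 members, 70 had log2 fold changes under 0.5 in size under caloric restriction.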

Other observations

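The authors' deposited table holds one more log2 fold change column, headed TM5441, which is absent from the labels, with no group mean and no adjusted p. The 76 members had a median of 0.01 in it (all genes -0.01), with 36 values below 0. Mrps27 had the lowest value, -0.42, and Mrpl47 the highest, 0.38, in the authors' deposited table. Which libraries stand behind that column is not known.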
